A study of Mus musculus with 20 samples.

Results

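Chemokine transcripts were examined in DC2 cells, an immortalised line of principal cells from the distal caput of the mouse epididymis. The genes were 10 chemokine ligands, Cxcl1, Cxcl2, Cxcl5, Cxcl10, Cxcl12, Cx3cl1, Ccl2, Ccl5, Ccl7 and Ccl20, taken by symbol from 2 tables of 21509 protein-coding genes each, and all 10 were listed in both tables. In the flow experiment, 6 libraries came from cells exposed for 3 h to a shear stress of 1 dyn/cm2 (flow) and 6 from cells without it (static). In the silencing experiment, 4 libraries came from cells transfected with a mixture of 3 siRNAs to Ift88, a gene needed to build primary cilia, and 4 from cells given a scrambled control siRNA. According to the methods of the study, both siRNA groups were under flow, which the sample labels do not name, and there was no static siRNA group. All groups are the same cell line, so no group stands for the epididymis with its other cells. The title and the treatment label of a single library disagree, flow in the former and static in the latter; by its title it is flow replicate 6 here. Nothing in the labels says that replicates were separate cultures, so p-values measure only the spread between these libraries.

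Chemokines are small secreted proteins that bind G protein-coupled receptors and draw leukocytes along a gradient. Many are made by epithelial cells and fibroblasts when NF-kB is activated by cytokines, microbial products or stress, while Cxcl10 and Ccl5 also respond to interferons. In the epididymis, as in other ducts, they take part in defence against ascending infection. The genes fall into groups by the cells they attract: Cxcl1, Cxcl2 and Cxcl5 bind Cxcr2 and attract neutrophils, Ccl20 binds Ccr6 on dendritic cells and lymphocytes, Ccl2 and Ccl7 bind Ccr2 and attract monocytes, Cxcl10 and Ccl5 attract activated T cells, and Cxcl12 and the membrane-bound Cx3cl1 act through Cxcr4 and Cx3cr1 in cell homing and adhesion.

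The promoters of 4 of these genes are shown because, of those at hand, theirs hold the consensus of NF-kB binding sites. RefSeq windows on GRCm38.p6, from 250 bases before the gene start to 50 after it, were given for 6 of the 10 genes, and the other 4, Cxcl5, Ccl2, Ccl5 and Ccl7, are named only. Capitals mark matches to the NF-kB consensus, 10 letters long, searched on both strands. Cxcl1 lies at chr5:90890995-90891294 (plus strand), Cxcl2 at chr5:90903649-90903948 (plus strand), Ccl20 at chr1:83116516-83116815 (plus strand) and Cxcl10 at chr5:92348840-92349139 (minus strand), and all are written 5′ to 3′ on the strand of the gene.
Cxcl1: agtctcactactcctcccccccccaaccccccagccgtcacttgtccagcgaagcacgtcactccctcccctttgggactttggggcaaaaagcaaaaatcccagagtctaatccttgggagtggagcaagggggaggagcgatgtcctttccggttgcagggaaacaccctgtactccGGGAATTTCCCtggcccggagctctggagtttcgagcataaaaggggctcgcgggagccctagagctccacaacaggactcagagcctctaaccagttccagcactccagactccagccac
Cxcl2: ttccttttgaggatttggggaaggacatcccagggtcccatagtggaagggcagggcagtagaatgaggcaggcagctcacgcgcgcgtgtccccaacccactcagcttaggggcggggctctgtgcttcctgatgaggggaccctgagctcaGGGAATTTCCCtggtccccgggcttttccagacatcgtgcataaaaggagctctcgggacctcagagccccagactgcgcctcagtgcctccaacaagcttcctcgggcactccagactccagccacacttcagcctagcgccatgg
Ccl20: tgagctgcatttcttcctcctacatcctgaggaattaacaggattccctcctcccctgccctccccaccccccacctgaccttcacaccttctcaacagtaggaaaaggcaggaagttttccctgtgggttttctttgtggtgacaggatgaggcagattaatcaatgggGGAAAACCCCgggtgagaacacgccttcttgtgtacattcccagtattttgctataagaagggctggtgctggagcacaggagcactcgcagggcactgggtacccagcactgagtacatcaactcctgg
Cxcl10: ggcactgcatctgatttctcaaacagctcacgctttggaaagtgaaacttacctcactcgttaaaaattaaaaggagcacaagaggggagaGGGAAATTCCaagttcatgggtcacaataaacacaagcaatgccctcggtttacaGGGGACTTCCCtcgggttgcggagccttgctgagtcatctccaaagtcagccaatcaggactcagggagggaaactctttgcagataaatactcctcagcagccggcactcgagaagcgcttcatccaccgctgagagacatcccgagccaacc
The windows of Cxcl1 and Cxcl2 hold the same run, GGGAATTTCCC, which starts 71 and 97 bases before the gene start and reads as a match on both strands with the 2 matches overlapping. Ccl20 has 1 match, 80 bases before its start, and Cxcl10 has a match 159 bases before its start and an overlapping pair that begins 104 bases before it. Cxcl10 alone among the 6 windows also holds the core of the interferon-stimulated response element (GAAANNGAAA), 213 bases before its start, and an AP-1 site (TGANTCA), 74 bases before it. No match to any of the 3 motifs was found in the windows of Cxcl12 and Cx3cl1. Of all 32851 mouse promoter windows, 8.46% hold the NF-kB consensus, 3.44% the interferon-stimulated response element core and 7.81% the AP-1 site. A match describes the letters of the window and is not a measured binding site.

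Positions from GENCODE M21 on GRCm38, which is older than the Ensembl release behind the tables, place Cxcl1 (ENSMUSG00000029380; chr5:90891241-90893115), Cxcl2 (ENSMUSG00000058427; chr5:90903871-90905938) and Cxcl5 (ENSMUSG00000029371; chr5:90759360-90761624) close to each other on the plus strand, and Cxcl10 (ENSMUSG00000034855; chr5:92346638-92348889) farther along chromosome 5 on the minus strand. Ccl2 (ENSMUSG00000035385; chr11:82035571-82037453) and Ccl7 (ENSMUSG00000035373; chr11:82045712-82047525) are neighbours on chromosome 11, where Ccl5 (ENSMUSG00000035042; chr11:83525778-83530518) lies on the opposite strand. Ccl20 (ENSMUSG00000026166), Cxcl12 (ENSMUSG00000061353) and Cx3cl1 (ENSMUSG00000031778) are on chromosomes 1, 6 and 8.

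The unit is TPM, a transcript abundance that accounts for length and sums to 1000000 in each library, so levels can be compared between genes of a library. TPM keep no total of reads, and the depth behind each value is unknown. Between 15543 and 16562 genes were above 0 in the flow experiment. Of the siRNA libraries, the 4 with Ift88 siRNA had 15713 to 16682 genes above 0 and the 4 with control siRNA 15292 to 15382, so these ranges do not overlap. Ift88 itself was at 1.71, 1.27, 1.28 and 0.917 TPM with Ift88 siRNA and at 4.21, 4.08, 4.15 and 4.12 TPM with control siRNA (limma log2 fold change -1.17 ± 0.13, standard error, with adjusted p = 0.00212). Of 5 epithelial markers, Krt18 was at 23.2 to 111 TPM in the flow experiment and 128 to 159 TPM in the siRNA experiment, while the other 4 stayed at or under 1.73 TPM in every library. Of 5 principal cell markers, 4, among them Aqp9 and Lcn5, stayed under 1 TPM in every library, so the labelled cell type was not borne out by these defining transcripts.

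Across groups, the level of these genes spanned several orders of magnitude. In static cells the mean was highest for Cxcl10 (268 ± 60.6 TPM, SD, n = 6), Ccl5 (241 ± 143) and Ccl2 (196 ± 72.5), whose ranges overlap, followed by Cxcl1 (64.4 ± 29.1), whose range lay below that of Ccl2 but met the lower end of Ccl5. Cxcl12 (25.2 ± 13.3) overlapped Cxcl1 above it and Ccl7 (17.9 ± 5.18) after it. Cx3cl1 (4.76 ± 0.958) stood apart from its neighbours, and Cxcl5 (1.498 ± 0.666), Cxcl2 (0.589 ± 0.548) and Ccl20 (0.106 ± 0.163) overlapped near 0. In control siRNA cells the order was another one: Ccl2 ranked 4 among 21509 genes at 6761 ± 138 TPM (SD, n = 4), ahead of Cxcl1 (1572 ± 105) and Ccl7 (1289 ± 166), whose ranges overlap, and of Cxcl10 (147 ± 7.80), Ccl5 (65.7 ± 8.50) and Cxcl12 (38.9 ± 2.51). Cxcl2 (15.4 ± 2.22), Ccl20 (7.35 ± 0.620), Cx3cl1 (6.23 ± 1.75) and Cxcl5 (5.15 ± 0.281) were the lowest, the last 3 overlapping from each to the next. The tables were normalised separately, and the siRNA cells also differ from the others by transfection, so no test was made between them.

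**Figure D1:**
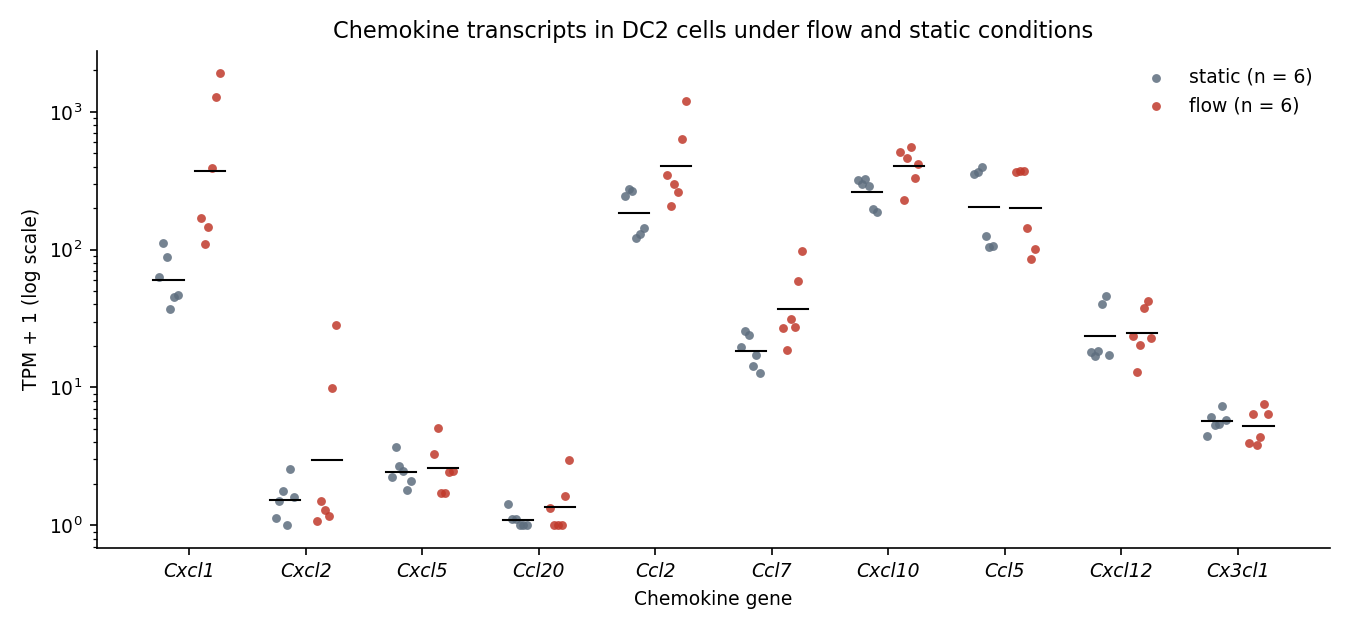
TPM + 1 on a log axis for the 10 chemokine genes, with 1 point per library (grey, 6 static; red, 6 flow) and a black line at the mean of the log values. Cxcl1 reached 1903 TPM under flow against at most 111 TPM in static cells. The conditions overlapped in Ccl5, Cxcl12 and Cx3cl1, with 2, 1 and 3 of 6 flow libraries below and 0, 0 and 1 above every static library.

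The first comparison asked whether shear stress changed the chemokine transcripts. Flow libraries were higher in Cxcl1, Ccl2, Ccl7 and Cxcl10 in 5 of 6 same-numbered pairs each, and the size of the difference depended on the pair, with libraries numbered 4 to 6 showing most of it. With limma over all genes whose table mean reached 1 TPM, a gene was called at an adjusted p under 0.05 and a change over 1.5-fold. Of the 9 chemokine genes tested, 0 were called, beside 12 of 11388 genes (0.105%), and 0 were called with the library number as a block, beside 68 genes (0.597%). At an unadjusted p under 0.05, 4 of the 9 were higher (Cxcl1, Ccl2, Ccl7 and Cxcl10) and none was lower, beside 234 of all genes that were higher (2.05%). The median log2 fold change of the 9 was 0.61 and that of all genes -0.026. The 9 include Cxcl2 (0.97), which reached a table mean of 1 TPM only through flow libraries 5 and 6, and this raises the median. In 0 of the 9 were all flow libraries above all static ones, beside 0.492% of all genes.

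Cxcl1, a neutrophil attractant made by many epithelia, stood at 110 TPM in the lowest, 280 at the median and 1903 in the highest flow library, and at 36.0, 54.2 and 111 TPM in static libraries. Of the 6 flow libraries, 5 were above every static library, and flow replicate 2 was level with its static partner. The log2 fold change was 2.62 (standard error 0.63, 95% interval 1.26 to 3.98), a 6.15-fold difference on the TPM + 1 scale, with a limma adjusted p of 0.192 and a two-sided exact permutation p of 0.00433, where the smallest possible is 0.00216. Within pairs 1 to 3, Cxcl1 differed by 1.44, -0.016 and 0.73 on the log2 scale, and within pairs 4 to 6 by 3.40, 4.83 and 5.33. Fitted within numbers 4 to 6 alone, Cxcl1 was called (log2 fold change 4.52, standard error 0.50, limma adjusted p = 0.00914), as the only one of 9 chemokine genes (56 of 11424 genes, 0.49%). Within numbers 1 to 3 its log2 fold change was 0.72 (standard error 0.22, limma adjusted p = 1.00), with 0 of 8 chemokine genes called (5 of 11298 genes, 0.0443%); whether the sets differ was not tested. The labels do not name these sets. Numbers 4 to 6 are those where Cxcl1 differed most, and they include flow replicate 6, so the call within them adds no separate support. Without flow replicate 2, Cxcl1 and Cxcl10 were called over all numbers. Counting the library with discordant labels as static lowered the log2 fold change of Cxcl1 to 1.44 (limma adjusted p = 1.00).

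Cxcl2, which lies beside Cxcl1 and shares its receptor, was at or under 0.503 TPM in flow libraries 1 to 4 and at 8.88 and 27.4 TPM in flow libraries 5 and 6. Static libraries ranged from 0 to 1.54 TPM with a median of 0.548, so only those 2 flow libraries were above the static range. Cxcl2 passed the filter on low values only through them, and its log2 fold change of 0.97 ± 0.72 (standard error), with a limma adjusted p of 0.999, rests on them. With flow replicate 6 counted as static, the log2 fold change of Cxcl2 turned to -0.29. Ccl20, an attractant of dendritic cells, had too low a mean to be tested: it was at 0.617 and 1.96 TPM in the same flow libraries 5 and 6, at 0.327 in flow replicate 1 and listed at 0 in the other 3, and at 0 to 0.420 TPM in static libraries (exact permutation p = 0.316, n = 6 per group). Cxcl5, also a ligand of Cxcr2, was at 0.710 to 4.09 TPM under flow with a median of 1.46, and at 0.801 to 2.71 TPM in static cells with a median of 1.35. Its log2 fold change of 0.089 had a 95% interval from -0.46 to 0.64, and it was higher under flow in 4 of 6 pairs without the jump of its neighbours in numbers 5 and 6.

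Ccl2, the principal monocyte attractant, was at 207 TPM in the lowest, 325 at the median and 1194 in the highest flow library. Static libraries had 120, 194 and 275 TPM, and 4 of 6 flow libraries were above them all. The log2 fold change was 1.13 (standard error 0.38, 95% interval 0.32 to 1.94), with a limma adjusted p of 0.800 and an exact permutation p of 0.0303. Ccl7, its neighbour on chromosome 11 and a second ligand of Ccr2, followed the same libraries. Its TPM were 17.6, 28.4 and 96.8 under flow (lowest, median, highest) and 11.7, 17.5 and 24.5 in static cells, with 5 of 6 flow libraries above the static range. For Ccl7 the log2 fold change came to 1.01 ± 0.34 (standard error), with a limma adjusted p of 0.801 and an exact permutation p of 0.0173. In pairs 4, 5 and 6 Ccl2 differed by 1.11, 2.29 and 3.06 and Ccl7 by 0.95, 1.79 and 2.94 on the log2 scale, whereas in pairs 1 to 3 Ccl2 ran from -0.41 to 0.51 and Ccl7 from -0.46 to 0.44. With flow replicate 6 counted as static, the log2 fold change was 0.43 for Ccl2 and 0.38 for Ccl7.

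Cxcl10, an interferon-inducible attractant of activated T cells, was at 227, 442 and 556 TPM under flow (lowest, median, highest) and at 188, 292 and 322 TPM in static cells. Its difference was smaller than that of Cxcl1 but more even over the pairs, at 0.67, -0.39 and 0.53 in pairs 1 to 3 and 0.95, 0.75 and 1.16 in pairs 4 to 6. Cxcl10 differed by 0.61 ± 0.21 (log2, standard error) over all libraries, with a limma adjusted p of 0.817 and an exact permutation p of 0.0281. Ccl5, which shares induction by interferon, was at 84.3 to 371 TPM under flow and 104 to 396 TPM in static cells and did not follow Cxcl10. Its levels instead split by library number: libraries 1 to 3 had 353 to 396 TPM in both conditions and libraries 4 to 6 had 84.3 to 143 TPM. The log2 fold change of Ccl5 was -0.036 with a 95% interval from -1.07 to 0.99. Within numbers 1 to 3 the interval was -0.18 to 0.16, and within numbers 4 to 6 it was -0.48 to 0.36. For Cxcl12 the log2 fold change was 0.053 (-0.63 to 0.74) and for Cx3cl1 -0.12 (-0.51 to 0.28).

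**Figure D2:**
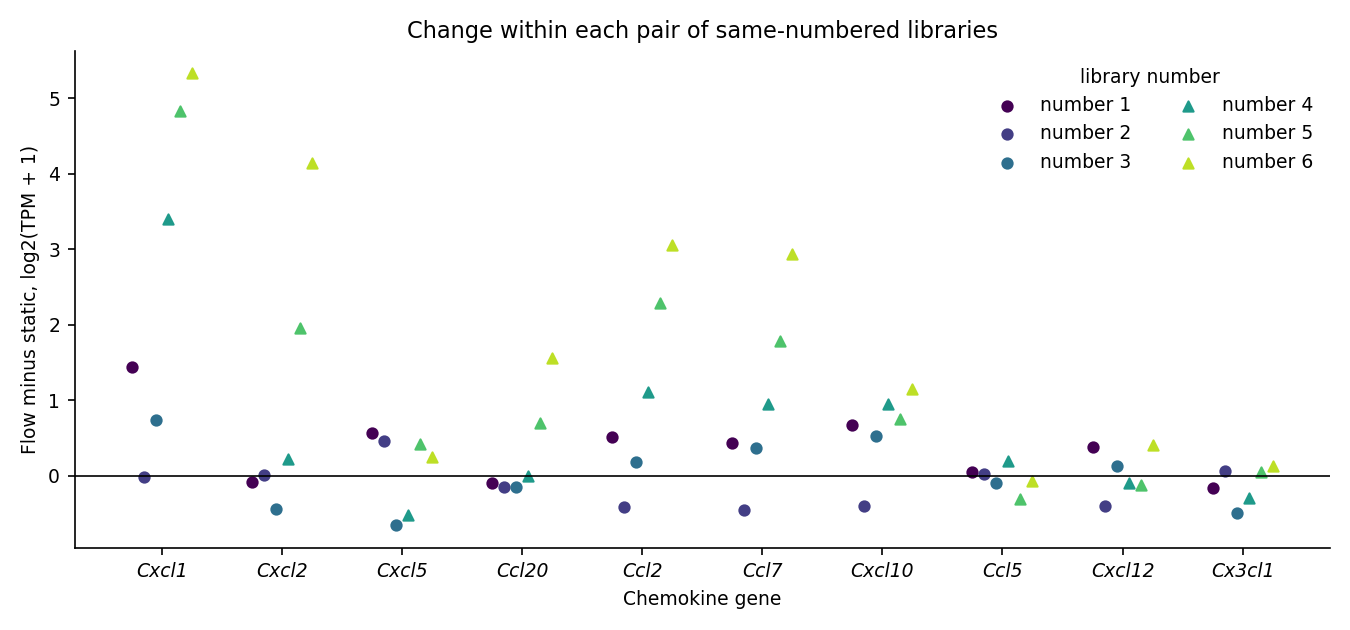
Flow minus static in log2(TPM + 1) for each chemokine gene within pairs of same-numbered libraries (circles, numbers 1 to 3; triangles, 4 to 6). The values of Cxcl1, Ccl2 and Ccl7 in pairs 4 to 6 lie above those in pairs 1 to 3, with pair 6 highest at 5.33 for Cxcl1.

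When all 6 pairs were compared by sign flips within pairs, the exact p was 0.0625 for Cxcl1 and Cxcl10, 0.0938 for Ccl2 and 0.125 for Ccl7, where 0.0313 is the smallest possible. Pair 6 also held the highest Cd68, a lysosomal gene of macrophages, at 39.6 TPM under flow and 64.0 in static cells, and the highest Ppbp, another chemokine, at 90.5 and 58.6 TPM. The summed level of 7 leukocyte markers was 10.5 to 40.3 TPM under flow and 13.9 to 65.3 TPM in static cells, nearly all of it Cd68, while 5 of the 7 stayed under 1 TPM in every library. The 4 endothelial markers stayed at or under 0.918 TPM and the 4 fibroblast markers at or under 3.49 TPM in these libraries. Whether Cd68 and Ppbp have a part in the chemokine values of pair 6 was not tested. In cultured cells measured in bulk, a change in RNA per cell and a change in the share of expressing cells cannot be told apart.

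The 5 genes whose log2(TPM + 1) was most like that of Cxcl1 over the 12 libraries were F3 (Pearson r 0.977), Itprip (0.974), Nfkbia (0.972), Nfkbiz (0.967) and Zc3h12a (0.966). These points share library pairs, so the coefficients are descriptions. F3 encodes tissue factor. Nfkbia encodes IkB-alpha, the inhibitor that NF-kB induces to hold itself in the cytoplasm, and Nfkbiz its nuclear relative, while Zc3h12a encodes regnase-1, an endonuclease that degrades cytokine mRNA. Nfkbia was at 40.7 to 165 TPM under flow (median 55.6) and at 26.6 to 48.2 TPM in static cells (median 34.3), and its log2 fold change was 0.98 ± 0.31 (standard error), with a limma adjusted p of 0.691. Nfkbiz was at 16.6 to 73.4 TPM under flow and 9.87 to 17.8 TPM in static cells (log2 fold change 1.13, limma adjusted p = 0.462).

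Of 14 genes of the NF-kB pathway (subunits, kinases and inhibitors), 13 were tested and 0 were called, with 4 higher (Tnfaip3, Nfkbiz, Nfkbia and Rela) and 0 lower at an unadjusted p under 0.05, beside 2.05% of all genes higher, and a median log2 fold change of 0.11 (all genes, -0.026). Its most abundant subunit and kinase genes, Rela (117 to 172 TPM), Nfkb2 (82.3 to 127) and Chuk (51.2 to 87.2), covered narrow ranges. With the library number as a block, 1 of the 13 was called (0.597% of all genes), Tnfaip3 (log2 fold change 1.80), which encodes the deubiquitinase A20 that shuts NF-kB signalling down. Tnfaip3 was at 24.2 to 175 TPM in flow libraries and at 14.8 to 19.1 TPM in static libraries. The groups did not overlap, beside 0.492% of all genes that were higher without overlap. Of 6 genes that regulate cytokine mRNA stability in either direction, all tested, 0 were called without the block. At an unadjusted p under 0.05, 5 of the 6 were higher (2.05% of all genes). With the block 3 were called (0.597%): Zfp36, Zfp36l1 (log2 fold change 0.97) and Zfp36l2 (0.69). These encode the tristetraprolin family, which binds AU-rich elements of chemokine mRNA and shortens its life. Zfp36 was at 8.65 to 82.2 TPM under flow and 4.78 to 8.41 TPM in static cells (log2 fold change 1.97, standard error 0.50, limma adjusted p = 0.250 without the block). No static library reached the flow range (0.492% of all genes).

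**Figure D3:**
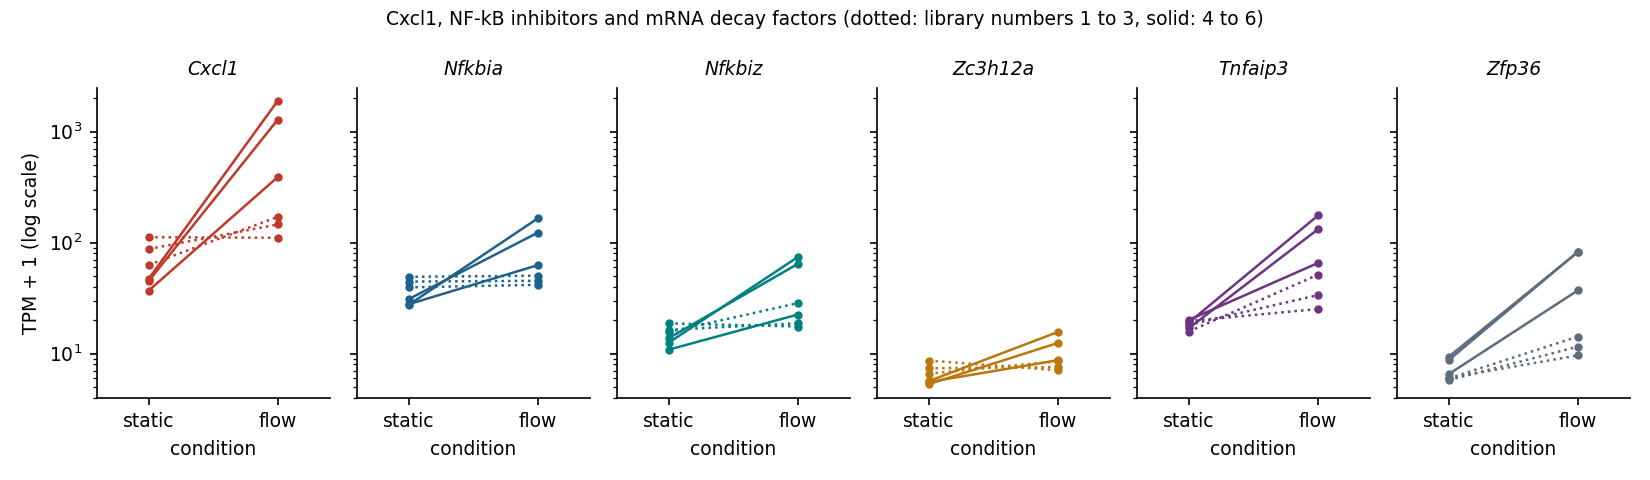
TPM + 1 on a log axis in same-numbered static and flow libraries joined by lines (dotted, numbers 1 to 3; solid, 4 to 6) for Cxcl1, 3 of the 5 genes most like it (Nfkbia, Nfkbiz and Zc3h12a), and Tnfaip3 and Zfp36. Cxcl1, Nfkbia and Nfkbiz were higher under flow in each of numbers 4 to 6 and flatter in 1 to 3, while all 6 flow libraries of Tnfaip3, from 24.2 TPM up, lay above the static ones.

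Upstream of these, all 13 receptors for interleukin 1, TNF, interleukin 17, interferons and microbial products were tested and 0 were called, with a median log2 fold change of -0.018. The most abundant were Ifngr1 (102 to 162 TPM), Il17rc (81.6 to 175) and Tnfrsf1a (67.4 to 101). All 7 interferon signalling factors, led by Stat3, Irf1 and Irf3, had fold changes under 0 (median -0.14) and 0 passed the unadjusted threshold. With the library number as a block, 0 were called and 3 of the 7 were lower at an unadjusted p under 0.05, Stat2 (log2 fold change -0.26), Irf7 (-0.32) and Stat3 (-0.14), beside 7.17% of all genes. Of the 13 receptors, 3 were higher with the block at that threshold, Tlr2 (log2 fold change 0.72), Tlr4 (0.26) and Il17rc (0.14), beside 3.94% of all genes, and 0 were called. Of 31 other chemokine ligands, 30 were listed, 24 stayed under 1 TPM in every library, 5 were tested and 0 called; Ccl27a (22.8 to 50.1 TPM), Ppbp (4.03 to 90.5) and Cxcl14 (10.03 to 32.3) were the most abundant. None of 24 chemokine receptors had a mean of 1 TPM, and the highest value of any, 1.07 TPM, was that of Ackr3, a scavenger of Cxcl12. Of 7 proteases that shed or trim chemokines, 4 were tested and 0 called, among them Adam10 and Adam17, which release Cx3cl1 from the membrane, at 59.3 to 84.4 and 19.8 to 25.2 TPM.

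The second comparison asked what silencing of Ift88 did to the same transcripts. Ccl5 rose and Ccl20 fell, Cxcl10 was higher and Cxcl1 lower by less than the fold threshold, and Ccl7 and Cx3cl1 overlapped between the groups. Of the 10 chemokine genes, all tested, 2 were called, beside 25 of 11209 genes (0.223%). Leaving the fold threshold out, 4 had an adjusted p under 0.05, beside 0.633% of all genes. At an unadjusted p under 0.05, 2 were higher (9.02% of all genes) and 5 lower (4.91%). In 6 of the 10 the groups did not overlap, beside 8.58% of all genes. The median log2 fold change of the 10 was -0.20 and that of all genes 0.017.

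**Figure D4:**
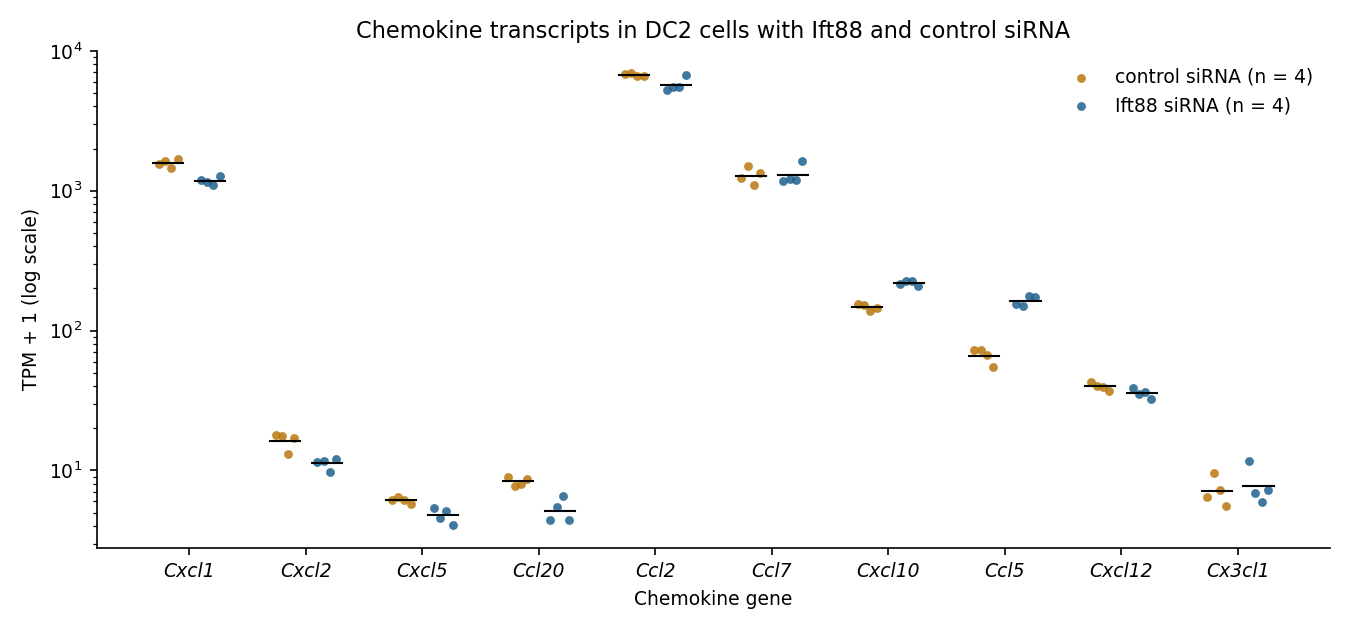
TPM + 1 on a log axis for the 10 chemokine genes with 1 point per library (orange, 4 with control siRNA; blue, 4 with Ift88 siRNA) and a black line at the mean of the log values. Ccl5 at 148 to 176 TPM lay above its controls at 53.6 to 71.9 TPM, and Cxcl1, Cxcl2, Cxcl5 and Ccl20 lay below theirs.

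Ccl5, which attracts T cells and monocytes, was at 155, 148, 176 and 172 TPM with Ift88 siRNA and at 71.9, 71.5, 65.7 and 53.6 TPM with control siRNA. The groups were far apart, with the lowest silenced library at 148 TPM and the highest control at 71.9. The log2 fold change was 1.30 (standard error 0.09, limma adjusted p = 5.01e-05), a 2.47-fold difference, and Ccl5 was called in all 8 fits that left out 1 library. Cxcl10 was at 215, 225, 226 and 208 TPM with Ift88 siRNA and at 154, 151, 137 and 144 TPM with control siRNA. Its groups did not overlap either, and the 1.49-fold difference (log2 fold change 0.57, standard error 0.06, limma adjusted p = 0.00149) was just under the fold threshold. Leaving out Ift88 siRNA replicate 4, control replicate 1 or control replicate 2 put Cxcl10 over it.

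The ligands of Cxcr2 and Ccl20 went the other way. Cxcl1 was at 1195, 1151, 1089 and 1262 TPM with Ift88 siRNA and at 1537, 1627, 1443 and 1681 TPM with control siRNA. The groups did not overlap, and the log2 fold change of -0.42 ± 0.07 (standard error), with a limma adjusted p of 0.0137, was under the fold threshold. With 1 library left out the adjusted p of Cxcl1 ran from 0.00639 to 0.0690. Cxcl2 was at 10.4, 10.7, 8.79 and 11.2 TPM against 17.0, 16.5, 12.1 and 16.0 TPM in controls, again without overlap (log2 fold change -0.53, standard error 0.12, limma adjusted p = 0.0759). Of the 8 fits that left out 1 library, Cxcl2 was called in 1, the one without control replicate 3, with limma adjusted p from 0.0286 to 0.214. Cxcl5 was at 4.41, 3.60, 4.14 and 3.06 TPM against 5.15, 5.48, 5.16 and 4.80 TPM, without overlap and with a limma adjusted p of 0.220 (log2 fold change -0.36, standard error 0.12). Ccl20 was at 3.45, 4.45, 5.54 and 3.46 TPM against 8.002, 6.72, 6.94 and 7.75 TPM in controls. It was called (log2 fold change -0.69, standard error 0.14, limma adjusted p = 0.0485), but in only 1 of the 8 fits that left out 1 library, the one without Ift88 siRNA replicate 3, with adjusted p from 0.0305 to 0.164.

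Of the monocyte attractants, neither was called. Ccl2 was at 5233, 5524, 5508 and 6654 TPM with Ift88 siRNA and at 6866, 6893, 6635 and 6648 TPM with control siRNA. In 3 of 4 silenced libraries it was below every control, and replicate 4 was within the control range (log2 fold change -0.24, standard error 0.08, limma adjusted p = 0.184). Ccl7 was at 1165, 1220, 1191 and 1616 TPM against 1234, 1487, 1094 and 1340 TPM, with replicate 4 above all others. Its log2 fold change was 0.0057 with a 95% interval from -0.23 to 0.24. Cxcl12 (31.6 to 37.5 against 35.8 to 42.0 TPM; log2 fold change -0.16, 95% interval -0.33 to 0.0059) and Cx3cl1 (4.96 to 10.7 against 4.57 to 8.65 TPM; 0.12, -0.33 to 0.57) overlapped between the groups.

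The exact permutation p was 0.0286, the smallest that 4 against 4 libraries allow, for each of the 6 genes without overlap (Cxcl1, Cxcl2, Cxcl5, Ccl20, Cxcl10 and Ccl5), 0.0571 for Cxcl12, 0.0857 for Ccl2, 0.600 for Cx3cl1 and 1.00 for Ccl7. These tests were not adjusted for their number. The number of genes above 0, which was higher in every Ift88 siRNA library, separates the same libraries, and its part in these values was not tested. The summed leukocyte markers, at 87.7 to 97.0 TPM with Ift88 siRNA and 90.7 to 100 TPM with control siRNA, overlapped, and 6 of the 7 stayed under 1 TPM in every library.

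**Figure D5:**
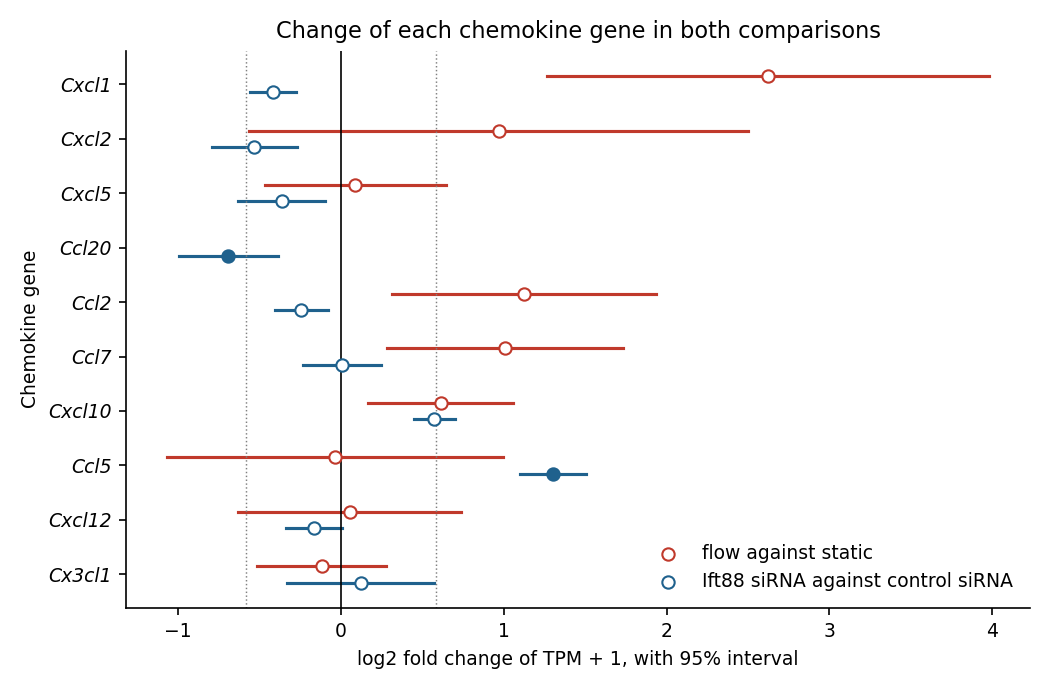
Log2 fold change of TPM + 1 with its 95% interval for each chemokine gene, flow against static in red and Ift88 siRNA against control siRNA in blue, filled where called, with dotted lines at 1.5-fold. Cxcl1 lay at 2.62 under flow and at -0.42 with Ift88 siRNA, Cxcl10 was above 0 in both, and Ccl20 has no value under flow because of its low level.

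Among the genes around these chemokines, 0 were called with Ift88 siRNA in any of the other lists. Of the 7 interferon signalling factors, 3 were higher at an unadjusted p under 0.05 (9.02% of all genes), among them Stat2 (log2 fold change 0.45, limma adjusted p = 0.135), part of the factor that binds interferon-stimulated response elements, and Irf7 (0.47, adjusted p = 0.220). Stat2 was at 14.0, 13.1, 11.8 and 9.01 TPM with Ift88 siRNA and at 8.26, 8.29, 8.41 and 8.64 TPM with control siRNA, without overlap (8.58% of all genes). Of the 7 factors, 4 had fold changes above 0. The 13 tested NF-kB pathway genes had a median log2 fold change of -0.036 and 0 passed the unadjusted threshold. Nfkbia was at 242 to 285 TPM with Ift88 siRNA and 222 to 279 TPM with control siRNA, with a log2 fold change of 0.012 (95% interval -0.16 to 0.18), and Tnfaip3 at 137 to 150 and 131 to 166 TPM, with -0.036 (-0.20 to 0.12).

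Of the 6 regulators of mRNA stability, 3 were higher at an unadjusted p under 0.05 (9.02% of all genes), Zfp36 (0.31, limma adjusted p = 0.264), Zfp36l1 (0.20, adjusted p = 0.296) and Zc3h12a (0.19, adjusted p = 0.321). All 13 cytokine and microbial receptors were tested and 12 had fold changes above 0, with a median of 0.090 and none past the unadjusted threshold. Ifngr1 (236 to 302 TPM), Il17rc (177 to 212) and Tlr2 (117 to 153) were the most abundant. Of 24 chemokine receptors, 2 were tested, Ccrl2 (2.22 to 4.24 TPM) and Cxcr2 (2.10 to 3.73 TPM), the receptor of Cxcl1, Cxcl2 and Cxcl5. Their log2 fold changes were 0.12 and 0.10, and neither was called. Of the other ligands, 4 were tested and 0 called, with Cxcl14 (25.8 to 35.7 TPM), Ccl27a (15.3 to 26.4) and Ccl25 (13.6 to 20.8) the most abundant, and of the proteases 3 were tested and 0 called. The genes most like Ccl5 over the 8 libraries were Pigs (Pearson r 0.992), Sult1c2 (0.984), Dhrs11 (0.974), Thoc3 (0.969) and Acads (0.964). These coefficients include the distance between the groups. Within the control and the Ift88 siRNA libraries taken separately, r stayed high for Sult1c2 (0.961 and 0.989). In the same order it was 0.928 and 0.217 for Pigs and 0.320 and 0.825 for Dhrs11. For Thoc3 it was -0.371 and 0.845, and for Acads 0.653 and -0.869.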

How the data were processed

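RNA-seq of DC2 cells was analysed in 12 libraries of the flow experiment and 8 of the siRNA experiment, grouped by their labels. The authors deposited TPM, 1 table per experiment. Per the study's methods and the submitters' processing notes, reads were trimmed (Trimmomatic in the methods, fastp 0.20.0 in the notes), assigned to Ensembl 110 transcripts with kallisto 0.46.2 and summarised to genes with tximport, with FastQC 0.11.8 and MultiQC 1.8 for quality. TPM are not counts and keep no depth, so no count model was run, and fold changes on this scale understate those of low genes.

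From the deposited TPM, log2(TPM + 1) was fitted with limma 3.58.1 (R 4.3.3, intensity trend) over the genes whose table mean reached 1 TPM, and p-values were adjusted over all of these by Benjamini-Hochberg. A gene was called at an adjusted p under 0.05 and over 1.5-fold. Standard errors and 95% intervals are limma's. Single genes were also tested by two-sided exact permutation (10 per experiment). The procedure was tested on simulated data. Remaining steps ran in Python 3.11.15 (numpy 2.4.6; pandas 2.3.3) and figures were drawn with matplotlib 3.10.9.

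Same-numbered flow and static libraries deviated together from their group means (r over genes 0.294, 0.463, 0.425, 0.468, 0.662 and 0.600 for numbers 1 to 6), which was read as pairing by number. Flow library 3 correlated most with static library 1, and the others each with the static library of their own number. The labels do not state a pairing.

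All lists, the chemokine genes included, were chosen with earlier results of these data known. Named are the 10 genes, Ift88, of each other list the genes called and up to 3 of highest mean TPM, and 5 genes most like Cxcl1 and Ccl5. Tnfaip3, Zfp36 and its relatives, Stat2, Irf7 and Tlr4, and the genes given for library 6 and for the markers, were named after their values were seen. Alternatives covered the filter, library weights, scaling by median of ratios, a pseudocount of 0.1, no fold threshold and the replicate block. They also covered each library left out, the label of flow replicate 6, fits within numbers 1 to 3 and 4 to 6 and, chosen after seeing the data, leaving out number 2. The values of 2 listed genes are not reported here.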

Additional observations from a re-analysis of the deposited data

Results flagged for a closer look

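Of 40 groups of 4 or 6 libraries (10 genes in 4 groups), 2 held a library far from the others by Dixon's criterion, as many as chance gives at 1 in 20. Ccl20 in static replicate 1 was at 0.420 TPM, with the next highest static library at 0.110 TPM. Ccl7 in Ift88 siRNA replicate 4 was at 1616 TPM, with the next highest at 1220 TPM.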

How the results depend on the processing

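With the library number as a replicate block, 0 chemokine genes were called under flow and 2 with Ift88 siRNA, the same numbers as without it. In the siRNA experiment same-numbered libraries correlated at 0.046, 0.003, 0.259 and 0.176. Numbers 3 and 4 correlated most with their own number and 1 and 2 did not, so no pairing was read from the numbers. With the block Cxcl2 had a limma adjusted p of 0.0259. Exact tests within same-numbered pairs passed 0.05 for 0 genes in both experiments, against 4 under flow and 6 with Ift88 siRNA without pairing; with 4 pairs none can go below 0.125. Under flow, 1 chemokine gene was called with library weights (Cxcl10) and 1 within numbers 4 to 6 (Cxcl1), and 0 to 2 with 1 library left out. With Ift88 siRNA, 1 was called without the filter and 1 with a pseudocount of 0.1, both losing Ccl20, 1 to 2 with 1 library left out, and 4 without the fold threshold. The other lists under flow had 1 call with median-of-ratios scaling, 4 with library weights, 4 with the block, 3 within numbers 4 to 6, 3 without number 2 in both groups (chosen after seeing the data) and 0 to 4 with 1 library left out. All genes called were 12 under flow, 86 with library weights, 68 with the block and 0 with flow replicate 6 as static, and with Ift88 siRNA 25 (17 higher, 8 lower), 48 with library weights, 44 with the block and 22 (12 higher, 10 lower) with median-of-ratios scaling; the causes were not tested. Some fold changes, none of them called, turned direction: with flow replicate 6 as static Cxcl2 was at -0.29 and Ccl5 at 0.30, with library weights Cxcl5 under flow at -0.31 and Ccl7 with Ift88 siRNA at -0.078, and with median-of-ratios scaling Ccl7 at -0.017. With 1 library left out, under flow Cxcl5 ran from -0.11 to 0.21, Cxcl12 from -0.10 to 0.25 and Ccl5 from -0.23 to 0.21, and with Ift88 siRNA Cx3cl1 from -0.082 to 0.27 and Ccl7 from -0.10 to 0.077. The depth of the libraries, and so the counting error of low genes such as Ccl20 and Cxcl2, is unknown.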
